A study of Mus musculus with 4 samples.

Results

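In all, 10 receptor tyrosine kinase genes of epithelial and carcinoma cells, Mst1r, Met, Egfr, Erbb2, Erbb3, Fgfr1, Fgfr2, Axl, Ddr1 and Epha2, were followed through sorted fractions of 4T1 tumours. They were selected by gene name, with all of their 21 probes, because Mst1r was lower in cells of high aldehyde dehydrogenase (ALDH) activity at both times of day. The 10 genes are therefore 10 of 37074 gene names on the array, and 10 of the 23520 that had a probe well above background on at least 2 arrays. Since the ALDH contrast chose them, their ALDH differences are given as a description, with no test.

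4T1 is a mouse mammary carcinoma line, here grown as tumours in untreated BALB/c mice, and all samples share this line and strain. The groups were ALDH-high and ALDH-low cells at zeitgeber time ZT0 and ALDH-high and ALDH-low cells at ZT12, sorted with the ALDEFLUOR reagent, a substrate that ALDH turns into a fluorescent product. Each of the 4 groups was measured on 1 one-colour Agilent array, so no group was replicated and precision is limited by how few arrays there were. How many mice gave each fraction is not stated in the labels.

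Receptor tyrosine kinases span the cell membrane, bind a ligand outside, pair up, and phosphorylate each other and adaptor proteins inside, which switches on the RAS-MAPK and PI3K-AKT pathways. Mst1r, also called RON, and Met form one family, whose ligands are the related factors Mst1 (macrophage-stimulating protein) and Hgf, both cut to their active form by serine proteases. Egfr, Erbb2 and Erbb3 belong to the ERBB family, Fgfr1 and Fgfr2 bind fibroblast growth factors, Axl binds Gas6, Ddr1 binds collagen and Epha2 binds ephrin-A ligands on neighbouring cells. In mammary epithelium and its tumours these receptors are known for growth, survival and motility signals. Fgfr1 and Axl are also well known in mesenchymal cells, and Mst1r in some tissue macrophages.

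The probe that stood for each gene was the one with the highest mean level, and the letters of 5 probes show what the array read for the genes on which the results turn. The last 30 of the 60 bases are printed 5′ to 3′, with runs of at least 4 A or 4 T in capitals. The Mst1r probe lies at mm9 chr9:107822566-107822625 on the plus strand, and the file lists 3 RefSeq transcripts for it. Erbb2 had a pair of probes close together, at chr11:98298394-98298453 (the brighter) and chr11:98298103-98298162. The Epha2 probe is at chr4:140885139-140885198 and the bright Fgfr1 probe at chr8:26685072-26685131, all of them on the plus strand.
Mst1r A_51_P110672: gtatttatgtaatgtctgTTTTgtacctgt
Erbb2 A_55_P2809338: agtttaTTTTgttctgTTTTTacTTTTgtt
Erbb2 A_52_P49250: tcgctcgatgcttcaatcctgagtggttaa
Epha2 A_52_P518997: ttacagatttcTTTTattgggttgTTTTTT
Fgfr1 A_55_P2057777: tattAAAAAcaaacgaacagaaagAAAAAA

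The Fgfr1 stretch holds 21 A among its 30 bases, and the brighter Erbb2 stretch 21 T, against 10 T in the dimmer Erbb2 probe. These compositions matter for Fgfr1, since its other 3 probes were well above background on no array. Its level rests on that A-rich probe alone.

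Levels are given as log2 of the scanner software's processed signal less that array's own 75th percentile, so a level of 0 is as bright as that percentile. That percentile was between 156.3 and 458.8, and 55.8% to 60.6% of 59305 spots were well above background, with 0 saturated. Both ZT0 arrays lay on one slide and both ZT12 arrays on another, which means that time cannot be told apart from slide. The titles of the ZT12 samples also carry a suffix that the ZT0 titles lack. The labels do not say what it marks, and time cannot be told apart from it. The ZT12 ALDH-high and ZT0 ALDH-low arrays sat at position 1_1, where the spike-in slope was 0.789 and 0.873 and the software marked the array for evaluation. The ZT0 ALDH-high and ZT12 ALDH-low arrays sat at position 1_2, with slopes of 0.956 and 0.944. Position and a change of the ALDH difference with time cannot be told apart either. The error after ± for a gene's difference combines the scanner software's own errors, for 1 spot on each of the arrays compared. It does not cover the spread between tumours.

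Mst1r was far lower in ALDH-high than in ALDH-low cells at ZT0 and about 2-fold lower at ZT12. Its log2 level was -3.86 in ALDH-high cells and 0.37 in ALDH-low cells at ZT0, and -0.83 in ALDH-high cells and 0.19 in ALDH-low cells at ZT12. The unscaled signals behind them were 20.7 in ALDH-high cells and 275.1 in ALDH-low cells at ZT0, and 87.7 in ALDH-high cells and 522.6 in ALDH-low cells at ZT12. In order, the ZT0 ALDH-low array was highest, then ZT12 ALDH-low, ZT12 ALDH-high and ZT0 ALDH-high, and both ALDH-high arrays were below both ALDH-low arrays. The difference of ALDH-high minus ALDH-low was -4.23 ± 0.31 log2 units at ZT0, an 18.7-fold lower signal, and -1.02 ± 0.21 at ZT12, 2.03-fold lower. In such bulk samples fewer cells of a type and less RNA per cell cannot be told apart. The ALDH-low arrays differed by -0.18 ± 0.21 (ZT12 minus ZT0), less than the scanner error, and the ALDH-high arrays by 3.03 ± 0.32.

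Met, the receptor of hepatocyte growth factor, was lower in ALDH-high cells at both times by its brightest probe. That probe, at chr6:17523765-17523824, read a log2 level of -0.94 in ALDH-high cells and 0.65 in ALDH-low cells at ZT0, and -0.02 in ALDH-high cells and 0.95 in ALDH-low cells at ZT12. Its differences were -1.59 ± 0.21 at ZT0 and -0.97 ± 0.21 at ZT12, the second just short of 2-fold. Both ALDH-high arrays again lay below both ALDH-low arrays. A second Met probe, at chr6:17442312-17442371 and nearer the start of the listed transcript, gave -1.64 ± 0.22 at ZT0 and 0.75 ± 0.22 at ZT12, so the probes disagreed in direction at ZT12.

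**Figure D1:**
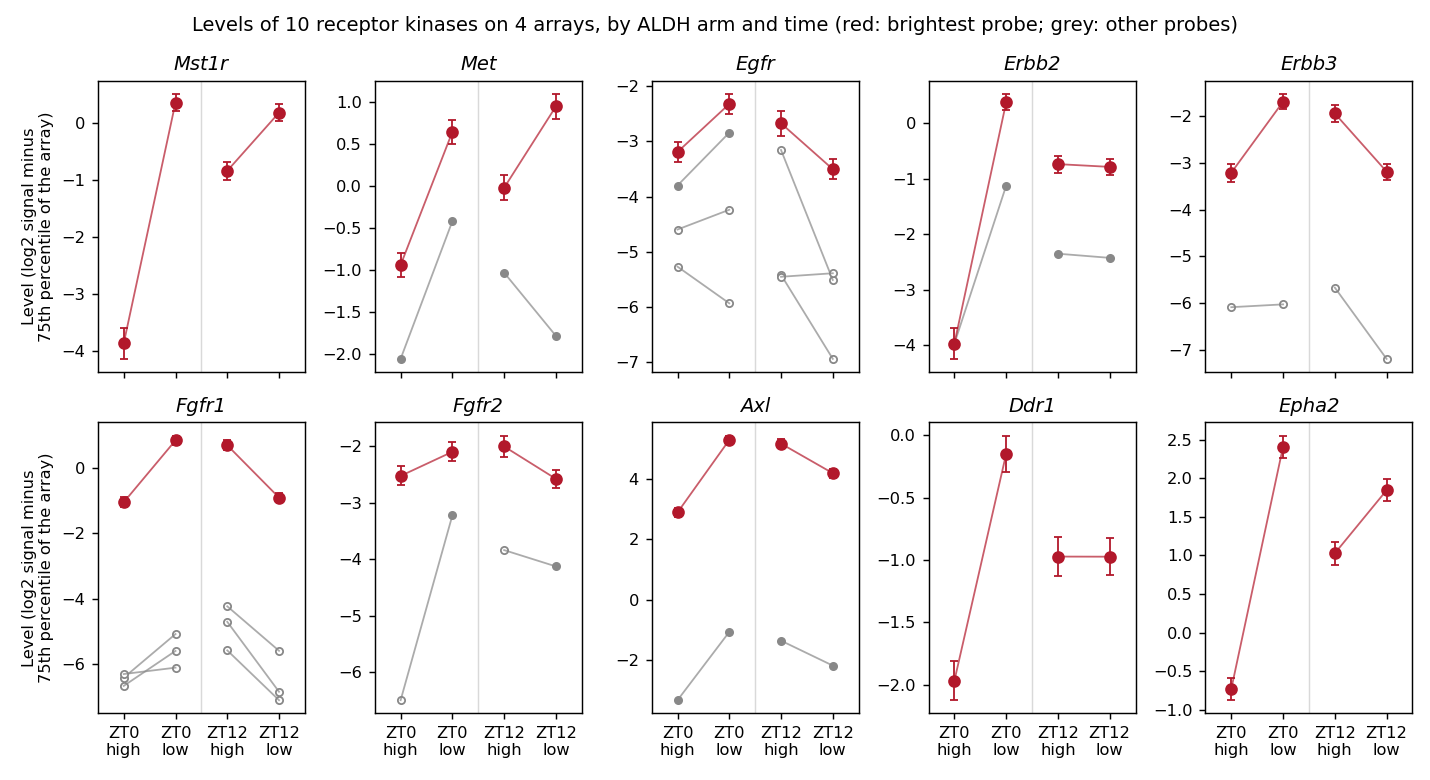
Log2 level of each of the 10 receptor kinase genes on the 4 arrays (vertical axis, log2 signal relative to the array's 75th percentile; axes differ between panels), ALDH-high left of ALDH-low at each time. Red points are the brightest probe with the scanner error as bar, grey points other probes, hollow points probes not well above background on that array; lines join the arrays of one time. For 8 of the 10 genes the ZT0 ALDH-high array is the lowest of the 4, at -3.86 for Mst1r and -3.97 for Erbb2, each on its own scale.

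Of the ERBB family, Erbb2, which has no known ligand of its own and signals as a partner of the other members, had the largest ZT0 difference of the 10 genes by brightest probe and 75th percentile. With normexp and quantile scaling Epha2 (-3.05) was beyond Erbb2 (-2.42), and with the mean of probes Mst1r (-4.23) was beyond Erbb2 (-3.59). Its log2 level was -3.97 in ALDH-high cells and 0.37 in ALDH-low cells at ZT0, and -0.74 in ALDH-high cells and -0.79 in ALDH-low cells at ZT12. The ZT0 ALDH-high array stood far below the other 3, and the ZT12 arrays were alike. The difference was -4.34 ± 0.31 at ZT0, 20.3-fold lower, and 0.05 ± 0.21 at ZT12. The dimmer Erbb2 probe gave -2.84 ± 0.32 and 0.07 ± 0.27 at these times.

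Erbb3, which binds neuregulins and has little kinase activity itself, read -3.21 in ALDH-high cells and -1.70 in ALDH-low cells at ZT0, and -1.95 in ALDH-high cells and -3.19 in ALDH-low cells at ZT12. Its probe lies at chr10:128004749-128004808 on the minus strand and has no RefSeq transcript listed in the file. The other Erbb3 probe, listed to a RefSeq transcript, was well above background on no array, so the Erbb3 values rest on the probe listed to an Ensembl transcript alone. The arm with the higher level differed between the times: the difference was -1.51 ± 0.25 at ZT0 and 1.24 ± 0.25 at ZT12. Egfr, the receptor of epidermal growth factor, was dim throughout, with -3.19 in ALDH-high cells and -2.32 in ALDH-low cells at ZT0, and -2.67 in ALDH-high cells and -3.50 in ALDH-low cells at ZT12 (chr11:16813815-16813874). Its differences, -0.87 ± 0.26 and 0.83 ± 0.29, were under 2-fold at both times. Of its other 3 probes, 2 were well above background on no array and 1 only at ZT0.

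The growth factor receptor Fgfr1 read -1.06 in ALDH-high cells and 0.83 in ALDH-low cells at ZT0, and 0.68 in ALDH-high cells and -0.92 in ALDH-low cells at ZT12. The difference was -1.89 ± 0.21 at ZT0 and 1.60 ± 0.21 at ZT12, the highest ZT12 value of the 10 genes. Fgfr2, which epithelial cells use for fibroblast growth factors from stroma, changed least: -2.53 in ALDH-high cells and -2.10 in ALDH-low cells at ZT0, and -2.00 in ALDH-high cells and -2.58 in ALDH-low cells at ZT12 (chr7:137307473-137307532, minus strand). Its differences of -0.43 ± 0.24 and 0.57 ± 0.25 were each about 2 scanner errors in size. A second Fgfr2 probe was not well above background in either ALDH-high array and was at least 2.57-fold lower in ALDH-high cells at ZT0.

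Axl, the receptor of Gas6, read 2.89 in ALDH-high cells and 5.30 in ALDH-low cells at ZT0, and 5.17 in ALDH-high cells and 4.19 in ALDH-low cells at ZT12 (chr7:26542335-26542394, minus strand). Its difference was -2.41 ± 0.20 at ZT0 and 0.98 ± 0.20 at ZT12, and a second probe gave -2.26 ± 0.25 and 0.83 ± 0.22. Both Axl probes therefore had the same sign at each time.

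Ddr1, the collagen receptor of epithelial cells, read -1.97 in ALDH-high cells and -0.15 in ALDH-low cells at ZT0, and -0.97 in both ALDH arms at ZT12 (chr17:35818525-35818584, minus strand). The difference was -1.82 ± 0.21 at ZT0 and 0.00 ± 0.22 at ZT12. Epha2 read -0.73 in ALDH-high cells and 2.41 in ALDH-low cells at ZT0, and 1.03 in ALDH-high cells and 1.84 in ALDH-low cells at ZT12. Its differences were -3.14 ± 0.21 and -0.82 ± 0.20, so Epha2, with Mst1r and Met, had both ALDH-high arrays below both ALDH-low arrays.

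At ZT0, 8 of the 10 genes were at least 2-fold lower in ALDH-high cells, against 31.5% of the 23520 features, and 0 were at least 2-fold higher, against 20.5%. At ZT12, 1 (Mst1r) was at least 2-fold lower, against 17.9% of features, and 2 (Erbb3 and Fgfr1) at least 2-fold higher, against 32.2%. Axl and Met were just under the 2-fold mark at ZT12. Mst1r alone of the 10 was at least 2-fold lower at both times, as were 0.357% of features (84 genes), and this is the pattern by which it was chosen. The median difference of the 10 genes was -1.85 at ZT0 and 0.31 at ZT12, beside -0.32 and 0.30 over all features, and the ZT12 median lay between -0.56 and -0.10 under 4 other scalings. Mst1r stood at percentile 0.332 of all features at ZT0 and 17.5 at ZT12. Opposite signs at ZT0 and ZT12 were found in 7 of the 10 genes and in 84.2% of all features, but in 3 to 5 of the genes and 77.2% to 81.5% of features under the other scalings.

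**Figure D2:**
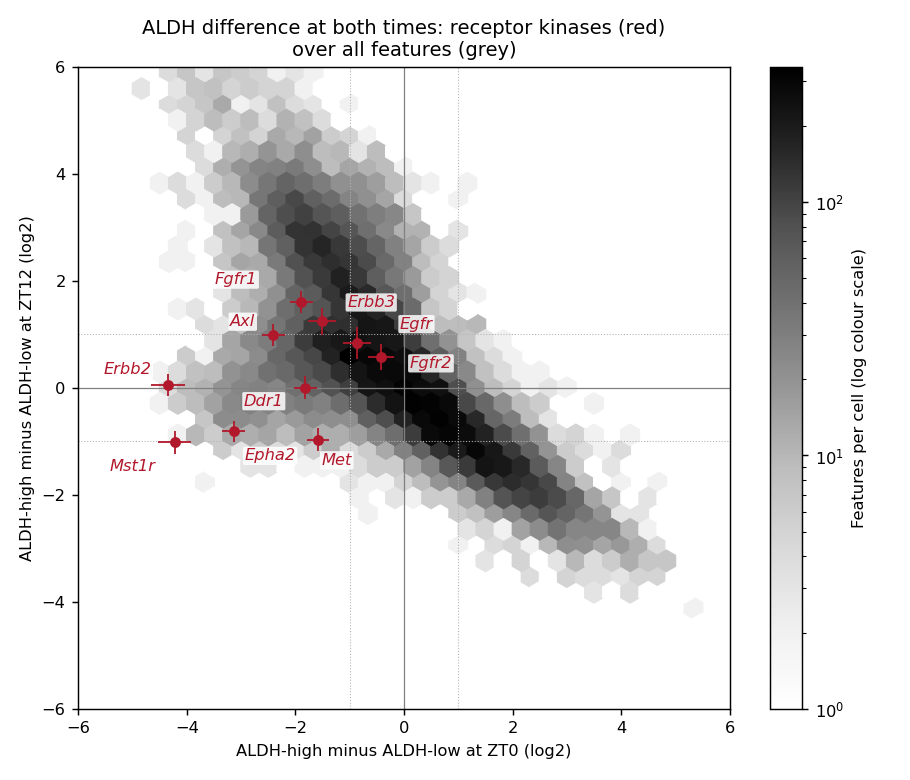
ALDH-high minus ALDH-low in log2 units at ZT0 (horizontal axis) and ZT12 (vertical axis) for the 10 receptor kinases (red, with scanner errors) over all 23520 features (grey, darker for more features on a log colour scale; values beyond 6 log2 units are not drawn). Dotted lines mark a 2-fold difference. Mst1r, Met and Epha2 lie below 0 on both axes, Mst1r at -4.23 and -1.02; at ZT12 Erbb2, Ddr1, Fgfr2 and Egfr lie at or above 0 here and below 0 when the arrays are scaled to their median.

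The ZT12 values depended on the scaling of the arrays. Scaling to the median of each array in place of the 75th percentile moved the median of all features to 0.17 at ZT0 and -0.57 at ZT12. With it 20.2% of features were at least 2-fold lower and 29.96% higher at ZT0, and 38.8% lower and 20.2% higher at ZT12. Under that scaling Mst1r (-1.89), Met (-1.84) and Epha2 (-1.69) were each more than 2-fold lower at ZT12, and 0 of the 10 genes were 2-fold higher. These 3 were then at least 2-fold lower at both times, with 2.05% of features. Erbb2, Ddr1, Fgfr2 and Egfr had positive values at ZT12 under the 75th percentile and negative ones under median scaling, at -0.82, -0.87, -0.30 and -0.04. The first 3 of these were negative under all 4 other scalings. Erbb3, Fgfr1 and Axl stayed positive at ZT12 under all 5 scalings tried, Fgfr1 between 0.72 and 1.64. Mst1r, Met and Epha2 stayed negative at both times under all 5, with Mst1r between -4.23 and -2.25 at ZT0 and between -1.89 and -0.91 at ZT12. At ZT0 Fgfr2 was the one gene of the 10 whose sign turned, to 0.06 under median scaling and 0.01 under normexp with quantile scaling.

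**Figure D3:**
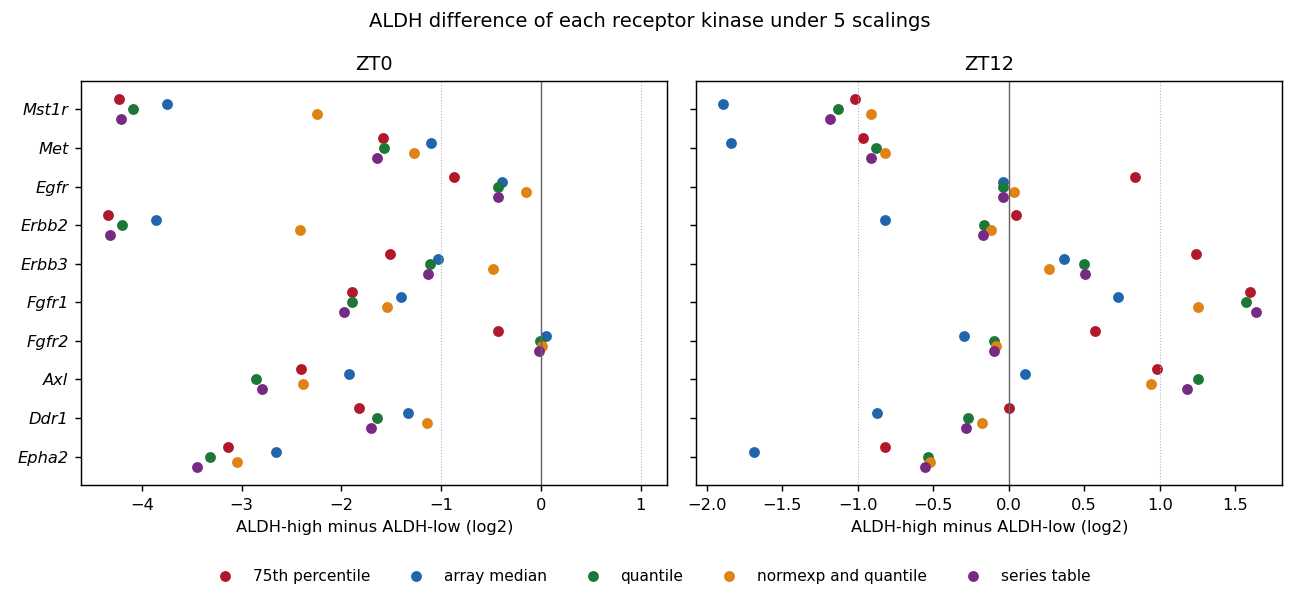
ALDH-high minus ALDH-low of each receptor kinase in log2 units (horizontal axis) at ZT0 (left) and ZT12 (right) under 5 scalings of the same 4 arrays, 1 point per scaling; dotted lines mark a 2-fold difference. At ZT0 all points but those of Fgfr2 lie below 0; at ZT12 Mst1r, Met and Epha2 lie below 0 and Erbb3, Fgfr1 and Axl above it under every scaling shown, while Egfr, Erbb2, Fgfr2 and Ddr1 lie on both sides.

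Between the times, the receptors differed mostly in opposite directions in the ALDH arms. In ALDH-high cells all 10 genes were higher at ZT12 than at ZT0 (8 or 9 under the other scalings, where Egfr, Fgfr2 or both were at -0.01), while 42.1% of all features were lower, and 6 of the 10 were at least 2-fold higher, against 32.5% of features: Erbb2 by 3.23 ± 0.32 log2 units, Mst1r by 3.03 ± 0.32, Axl by 2.28 ± 0.20, Epha2 by 1.76 ± 0.21, Fgfr1 by 1.74 ± 0.21 and Erbb3 by 1.26 ± 0.27. In ALDH-low cells 9 of 10 were lower at ZT12 (6 to 8 under the other scalings), as were 61.3% of all features, and 5 of the 10 were at least 2-fold lower, against 32.7% of features: Fgfr1 (-1.75 ± 0.21), Erbb3 (-1.49 ± 0.23), Egfr (-1.19 ± 0.25), Erbb2 (-1.16 ± 0.21) and Axl (-1.10 ± 0.20). Met was the exception there, at 0.30 ± 0.20. Under median scaling 0 of the 10 genes were 2-fold lower in ALDH-low cells, with 19.0% of features, and Mst1r and Epha2 turned to 0.65 and 0.26 there. The ZT0 ALDH-high array was the lowest of the 4 for 8 of the 10 genes and for 24.1% of features.

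The time difference common to both arms was tested with limma in an additive fit of time and ALDH arm over all 23520 features, and 0 features (0%) were called at an adjusted p under 0.05, with 2 at an unadjusted p under 0.05. Every feature had a standard error (SE) of 1.54 log2 units in this fit. That SE comes from the change of the ALDH difference with time, which array position shares, and not from replicates. The fit therefore cannot show that time differences are absent. With array position in place of ALDH arm, limma gave a median SE of 0.425. There 362 features had an unadjusted p under 0.05 and 0 were called. Mst1r had a time difference of 1.43 ± 1.54 (SE; limma, adjusted p = 1) and Erbb2 of 1.03 ± 1.54 (limma, adjusted p = 1). The other 8 genes lay between -0.33 for Egfr and 0.61 for Met, each with a limma adjusted p of 1. Without the ZT0 ALDH-high array the Mst1r value was -0.69, and without the ZT0 ALDH-low array 3.54. These fits had no term for ALDH arm, so their values mix the ALDH difference with time. They cannot tell whether the sign of the time difference rested on a single array.

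Arrays at the same slide position can also be set against each other, which changes ALDH arm and time together. At position 1_1, ZT12 ALDH-high minus ZT0 ALDH-low was -1.20 for Mst1r, -1.38 for Epha2 and -1.11 for Erbb2, with a median of -0.51 over the 10 genes and 0.03 over all features. At position 1_2, ZT0 ALDH-high minus ZT12 ALDH-low was -4.05 for Mst1r, -2.58 for Epha2 and -3.18 for Erbb2, with medians of -1.15 and 0.21. Mst1r was lower in the ALDH-high array of both pairs. This had to be so, since both ALDH-high arrays lay below both ALDH-low arrays for Mst1r. The pairs reuse the values by which Mst1r was chosen and are no further support.

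Markers of epithelial and blood cells also differed between the ALDH arms. At ZT0 all 13 measured epithelial markers of 15 listed were at least 2-fold lower in ALDH-high cells, against 31.5% of all features. Their median difference was -3.25: the adhesion molecule Epcam had a difference of -3.57, and the keratins Krt8 and Krt18 had -4.07 and -4.22. At ZT12 the list's median was 0.66, or -0.21 under median scaling. Its summed level was 12.6 in ALDH-high cells and 199.8 in ALDH-low cells at ZT0, and 96.7 in ALDH-high cells and 87.7 in ALDH-low cells at ZT12, in multiples of each array's 75th percentile. The remaining listed epithelial markers, Ovol1 and Elf3, were not well above background on enough arrays to be measured. The blood cell lists did not move as one. All 6 pan-leukocyte markers were at least 2-fold higher at ZT0 in ALDH-high cells, against 20.5% of all features, with medians of 2.28 at ZT0 and -1.32 at ZT12. Their summed levels were 939.9 in ALDH-high cells and 205.2 in ALDH-low cells at ZT0, and 285.2 in ALDH-high cells and 615.0 in ALDH-low cells at ZT12. Neutrophil markers had medians of 2.36 and -1.24 at these times, but the list was split. Ly6g (4.97 and -3.06), Cxcr2 (4.69 and -3.18) and Mmp8 (4.37 and -3.47) followed the medians. The brighter S100a8 (0.35 and 0.57), S100a9 (-0.26 and 1.27) and Csf3r (-0.72 and 1.70) did not. The medians of T and NK cells (-3.17 and 4.26), B cells (-2.48 and 5.59), macrophages and monocytes (-1.38 and 1.42) and red cells (-8.35 and 6.29) had signs opposite to those of the pan-leukocyte list. The macrophage list was split too. Adgre1, C1qa, C1qb and Aif1 had the signs of its medians, while Csf1r (0.61 and -0.27) and Cd68 (0.36 and -0.08) had those of the pan-leukocyte list. So did Cd4 (1.11 and -0.44) among the T and NK markers, whose other members followed the medians. The B cell marker Pax5 was positive at both times (0.28 and 0.63). The labels name 4T1 cells, yet Ptprc, the leukocyte antigen CD45, was well above background on all 4 arrays. The part that cell mixture plays in the receptor differences was not tested.

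The genes whose centred levels over the 4 arrays were most like those of Mst1r were, by root mean square distance in log2 units, Steap1 (0.215), Ankrd1 (0.252), Irx2 (0.266), Steap2 (0.305), Ctnnal1 (0.307) and Tyro3 (0.328). Steap1 and Steap2 encode metalloreductases of the cell membrane, Ankrd1 is a widely used target gene of the YAP coactivator, Irx2 encodes a homeobox factor, Ctnnal1 a relative of alpha-catenin, and Tyro3 a receptor kinase of the Axl family. Steap1 differed by -4.13 at ZT0 and -1.03 at ZT12, and Ankrd1 by -4.24 and -1.51. Tyro3 matched Mst1r at ZT0, with -4.18, and was at -0.19 at ZT12. Among the 10 receptors Erbb2 came nearest, at rank 26 with a distance of 0.428, and Epha2 next, at rank 89 with 0.570. Likeness over 4 arrays is a description of these arrays alone.

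Of 48 other receptor tyrosine kinases 37 were measured, and their median difference was -1.24 (ZT0) and 0.16 (ZT12). Under the other scalings the ZT0 median lay between -0.76 and -0.17. The ZT12 median turned to -0.71 under median scaling. At least 2-fold lower in ALDH-high cells were 19 at ZT0 and 6 at ZT12, against 31.5% and 17.9% of all features. At least 2-fold higher were 7 at ZT0 and 14 at ZT12, against 20.5% and 32.2% of all features. No member of the list passed 2-fold in the same direction at both times. Chosen after their values were seen, Kit, the stem cell factor receptor of mast and progenitor cells, differed by 2.69 at ZT0 and -2.84 at ZT12, and the insulin-like growth factor receptor Igf1r by 2.31 and -2.21, opposite to the receptors followed here at ZT0. Ephb4, a receptor of ephrin-B ligands (-3.61 and 0.04), and Ddr2, the second collagen receptor (-3.16 and -0.45), were low in the ZT0 ALDH-high array as Erbb2 was.

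Ligands were measured for 28 of 35 listed genes, with medians of -1.20 at ZT0 and 1.56 at ZT12, and with these signs under all 5 scalings. At ZT0 14 were at least 2-fold lower and 2 higher in ALDH-high cells, against 31.5% and 20.5% of all features. At ZT12 3 were lower and 16 higher, against 17.9% and 32.2%. Among the 22 well above background on all 4 arrays, those with the largest mean size of difference were the ephrin Efna2 (-3.37 at ZT0 and 5.23 at ZT12), the neuregulins Nrg2 (-2.92 and 3.74) and Nrg4 (-1.75 and 3.04), the growth factors Fgf9 (-1.74 and 3.17) and Fgf18 (-1.64 and 2.68), and the Axl ligand Gas6 (-2.91 and 1.68). All 6 had opposite signs at the 2 times, as did 84.2% of all features. Hgf, the Met ligand, differed by 0.19 at ZT0 and 1.46 at ZT12. Mst1, the ligand of Mst1r, was well above background on 2 arrays, those of ALDH-high cells at ZT0 and of ALDH-low cells at ZT12, and was at least 3.32-fold higher in ALDH-high cells at ZT0 and at least 2.41-fold lower at ZT12. The EGF-like ligand Areg, named after its values were seen, was negative at both times, with -1.66 and -0.94.

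All 11 proteases and inhibitors that act on these ligands were measured, with medians of -1.52 at ZT0 and 0.57 at ZT12. Under the other scalings the ZT0 median lay between -1.15 and -0.47. The ZT12 median turned to -0.30 under median scaling. At ZT0 7 were at least 2-fold lower in ALDH-high cells and 1 higher, against 31.5% and 20.5% of all features. At ZT12 1 was lower and 5 higher, against 17.9% and 32.2%. St14, the membrane protease matriptase that can activate both Hgf and Mst1, differed by -3.80 at ZT0 and 1.31 at ZT12, and its inhibitor Spint1 by -2.55 and -0.48. The sheddase Adam17, which frees EGF-like ligands, went the other way, with 1.68 and -1.70. These 3 were chosen after their values were seen.

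Downstream of the receptors, all 32 adaptors and downstream kinases were measured, most of them higher in ALDH-high cells at ZT0. Their median was 1.19 at ZT0 and -1.23 at ZT12, with the same signs under all 5 scalings, and 18 of them were at least 2-fold higher in ALDH-high cells at ZT0 and at least 2-fold lower at ZT12, against 15.0% of all features. At ZT0 18 were higher and 4 lower by at least 2-fold, against 20.5% and 31.5% of all features. At ZT12 2 were higher and 20 lower, against 32.2% and 17.9%. The kinase Braf (2.78 and -2.41) and the exchange factor Sos2 (2.52 and -2.25) are examples, while the PI3-kinase subunit Pik3ca (-2.86 and 4.02) and the kinase Src (-2.48 and 0.69) had the opposite signs. All 16 genes of receptor turnover and inhibition were measured, with medians of 0.72 at ZT0 (0.07 under quantile scaling) and -0.90 at ZT12. At ZT0 6 were lower and 7 higher by at least 2-fold, and at ZT12 8 were lower and 3 higher, beside the same shares of all features. The ubiquitin ligase Cbl, which sends active receptors to degradation, differed by 2.13 and -1.94, its epithelial relative Cblc by -3.18 and 0.64, and the ERBB and Met inhibitor Lrig1 by -2.97 and -0.58. These examples were again chosen after their values were seen.

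**Figure D4:**
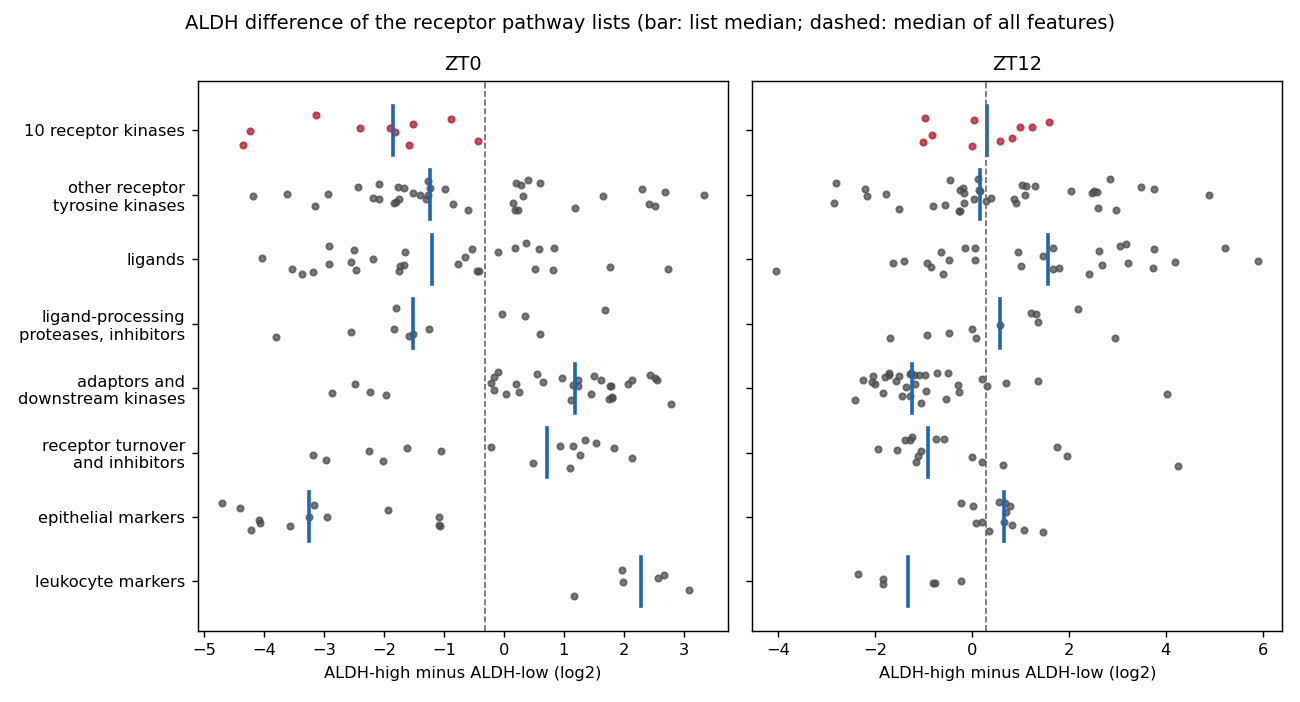
ALDH-high minus ALDH-low in log2 units (horizontal axis) at ZT0 (left) and ZT12 (right), 1 point per measured gene, for the 10 receptor kinases (red), 5 lists of their pathway and 2 marker lists (vertical axis); blue bars are list medians and the dashed line is the median of all features. Receptors, ligands and epithelial markers lie mostly below 0 at ZT0, with medians of -1.85, -1.20 and -3.25, and adaptors and leukocyte markers mostly above it, with medians of 1.19 and 2.28; at ZT12 the epithelial median of 0.66 becomes -0.21 under median scaling, and that of the 10 receptors, 0.31, becomes -0.56, while those of the other receptor kinases and of the proteases also turn below 0.

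The sequence before the start sites is shown for Mst1r and for the 2 receptors nearest to it in centred level over the arrays, Erbb2 and Epha2. RefSeq (GRCm38.p6) lists 2 start sites for Mst1r, 8114 bp apart, and the 250 bases before each are printed 5′ to 3′ on the gene's strand. Capitals mark the GC box GGGCGG, a binding motif of SP factors, and the E-box CACGTG, the motif bound by the clock factors BMAL1 and CLOCK, searched on both strands with no overlap between the motifs. The Mst1r windows are chr9:107906639-107906888 and chr9:107914753-107915002, that of Erbb2 is chr11:98412234-98412483 and that of Epha2 chr4:141300971-141301220, all on the plus strand.
Mst1r upstream start: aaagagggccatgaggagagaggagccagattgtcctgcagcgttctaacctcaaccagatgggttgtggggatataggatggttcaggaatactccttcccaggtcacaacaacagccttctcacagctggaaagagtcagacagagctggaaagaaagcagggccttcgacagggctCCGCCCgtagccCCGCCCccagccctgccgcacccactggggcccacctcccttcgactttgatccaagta
Mst1r downstream start: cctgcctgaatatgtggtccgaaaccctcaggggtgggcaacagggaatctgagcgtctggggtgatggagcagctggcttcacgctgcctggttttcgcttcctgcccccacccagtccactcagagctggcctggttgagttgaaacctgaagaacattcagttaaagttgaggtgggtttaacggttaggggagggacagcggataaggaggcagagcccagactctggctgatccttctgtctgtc
Erbb2: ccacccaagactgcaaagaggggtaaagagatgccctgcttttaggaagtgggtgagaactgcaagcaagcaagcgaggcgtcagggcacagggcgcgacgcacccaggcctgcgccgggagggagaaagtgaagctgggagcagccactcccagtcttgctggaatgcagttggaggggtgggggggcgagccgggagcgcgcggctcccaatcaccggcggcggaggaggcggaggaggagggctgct
Epha2: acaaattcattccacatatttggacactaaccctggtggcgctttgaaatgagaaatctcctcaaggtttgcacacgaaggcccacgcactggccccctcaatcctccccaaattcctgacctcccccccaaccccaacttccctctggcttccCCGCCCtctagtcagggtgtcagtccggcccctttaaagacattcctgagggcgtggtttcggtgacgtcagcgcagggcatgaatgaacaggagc

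The upstream Mst1r window held 2 GC boxes, the downstream one 0, the Erbb2 window 0 and the Epha2 window 1. No E-box was in these 4 windows. Over the 12 windows of the 8 receptors with an entry, 8 held a GC box and 1, that of Met, an E-box. Ddr1 and Mst1r had more than a single window, and counted by gene 6 of the 8 receptors had a GC box. Of 32851 windows of the same length, 32.7% held a GC box and 6.02% an E-box. Erbb3 and Fgfr1 are named only. A match is a run of letters and not a measured binding site, and the array does not tell the start sites of Mst1r apart.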

How the data were processed

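RNA of 4 sorted 4T1 fractions was hybridised to 1 one-colour array each. Per the file headers, the authors extracted their scans with Agilent Feature Extraction 10.7.1.1 (9.5.1.1 per the submitters' processing notes) with a grid of build mm9, and the deposited processed signal is an intensity, background-subtracted within each array and not normalized between arrays. Deposited flags marked spots well above background and outlier spots. The authors' deposited series table, likewise of intensity, had equal sorted values on all arrays, as after quantile normalization.

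Control and outlier spots were left out, spots of a probe averaged as log2, and the array's 75th percentile subtracted. The brightest probe by mean stood for a gene name, if well above background on at least 2 arrays. ALDH differences of 1 array against 1 were described with a 2-fold mark. The time difference was fitted with limma 3.58.1 in R 4.3.3 (ALDH arm as covariate, 1 residual degree of freedom, two-sided, Benjamini-Hochberg over 23520 features), a script checked on simulated arrays. The residual of this fit is the change of the ALDH difference with time, which array position shares. The p-values measure time against that change over these 4 arrays, and not against a spread between replicates. A probe dim on one side has a bound against the lowest signal well above background on that array.

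The genes named were the 10 receptors, the 6 nearest to Mst1r in level, and of each list at most 6 genes that passed 2-fold the same way at both times (for ligands, those well above background on all 4 arrays, by mean size of difference). No list gene passed 2-fold the same way at both times under the percentile scaling, the one used for this rule. The rule therefore named 6 ligands. The other list genes named, including Hgf and Mst1 and the marker genes, were chosen after their values were seen. The receptors and the lists were chosen with earlier results of these data known. All 10 receptors matched a RefSeq symbol. Exon and UTR positions were not analysed here. Alternatives were median, quantile, and normexp (offset 50) with quantile scaling, the series table, the mean of probes, outlier spots kept, other filters, array position as covariate, and leaving out each array. Files were read in Python 3.11.15 (pandas 2.3.3, numpy 2.4.6), and plots made with matplotlib 3.10.9.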

Additional observations from a re-analysis of the deposited data

Results flagged for a closer look

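For 7 of the 10 receptors the ALDH difference had opposite signs at the 2 times, with 1 array in each group, and this change was not tested. The ZT12 difference minus the ZT0 difference was 4.39 log2 units for Erbb2, 3.49 for Fgfr1, 3.39 for Axl, 2.75 for Erbb3, 1.82 for Ddr1, 1.71 for Egfr and 1.0 for Fgfr2. Opposite signs were found in 84.2% of all features, and the change with time and the array position cannot be told apart. The ZT12 value of Erbb2 was 0.05 and that of Ddr1 0.00, both smaller than their scanner error, and both turned negative under median scaling, as did those of Egfr and Fgfr2. Erbb3, Fgfr1 and Axl had opposite signs under all 5 scalings.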

How the results depend on the processing

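The count of 8 receptors at least 2-fold lower at ZT0 was 7 with normexp, 9 with the mean of probes and 8 under the other 3 scalings. Under median scaling 3 receptors were at least 2-fold lower and 0 higher at ZT12, and Mst1r had -3.74 at ZT0 and -1.89 at ZT12. With normexp and quantile scaling 0 were lower and 1 higher at ZT12, and Mst1r had -2.25 at ZT0. This scaling used an offset of 50, while the Mst1r processed signal in ZT0 ALDH-high cells was 20.7. The cause of the smaller difference was not tested. The mean Mst1r difference over both times was -2.62, and -1.20 and -4.05 within the array positions, where time changes too. Leaving out each array gave Mst1r time differences between -0.69 and 3.54, in fits with no term for ALDH arm that mix the ALDH difference with time. The scalings and the mean of probes changed 90 of the receptors' values, 59 by more than the scanner error, and 0 of those past 2-fold changed sign; the filters and outlier spots could not change a receptor's value, or did not. The arrays hold no replicate, so nothing here measures the spread between tumours. Levels near background are the least certain. They include Mst1r (-3.86) and Erbb2 (-3.97) in ZT0 ALDH-high cells, where the lowest level well above background was -4.59. The large ZT0 differences of Mst1r and Erbb2 rest on these levels. Those of Egfr, Erbb3 and Fgfr2 were also near background.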
